A study of Mus musculus with 8 samples.

Results

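The comparison is between an early culture of mouse liver duct cells, the library titled 48h, and the organoids that had formed from such cells by day 6. It uses 3 of the 8 libraries of the series, 1 titled 48h and 2 of organoids, chosen by their labels. All 8 came from adult male C57/B6 mice, from healthy livers whose cells had been sorted by FACS for EpCAM, a surface adhesion protein of bile duct epithelium. No genotype or drug separates the groups. The cells of both groups were embedded in Matrigel, a basement membrane extract, and fed organoid medium. The 2 organoid libraries are given as 6 days in every label. The labels of the other library disagree, since its title says 48h while its description and time point say 24 h, so it is named here by its title. The labels do not say whether the organoid replicates came from separate animals, so the spread between them may be technical. The titled 48h library has no replicate.

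Bile ducts are lined by cholangiocytes, which rarely divide in a healthy liver. Freed from the duct and given a matrix, growth factors and a Wnt signal, they re-enter the cell cycle and close into hollow spheres that can be passaged. Division needs E2F-driven genes, which supply the replication machinery, and later the mitotic genes. It is held back by cyclin-dependent kinase inhibitors, many of which are targets of p53 or of FoxO factors. Liver organoids are known for gaining Lgr5, a receptor that amplifies Wnt signals and marks epithelial stem cells. Hepatocytes and cholangiocytes share a fetal precursor, and hepatocytes make most plasma proteins.

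The values are RPKM, read numbers per length of transcript and per depth of library, which allow levels of different genes to be compared. A gene was counted as higher or lower when log2(RPKM + 1) in the titled 48h library lay at least 1, or 2-fold, outside the range of both organoid libraries. On that scale the change of a weakly expressed gene is understated. Of 12900 genes tested, 751 (5.82%) lay above the organoid range by this margin and 530 (4.11%) lay below it. By any margin, 5224 genes (40.5%) lay above the range and 3294 (25.5%) below. These shares are the background for the counts that follow, which use both organoid libraries and the main settings unless stated. On simulated data the same rule picked 7.64% of unchanged genes, both directions together. Calls of this kind can thus arise in number with no change behind them. When each library was first centred on its own median, 539 genes (4.18%) were higher and 739 (5.73%) lower, so the split between directions depends on the scaling. A limma model over all 8 libraries, in which the lone library is assumed to vary like the replicated groups, passed 0 genes (0%) at an adjusted p of 0.05, and the smallest adjusted p was 0.232. At an unadjusted p under 0.05, limma gave 548 higher and 410 lower genes. All differences below are therefore levels outside or inside a range of 2 libraries, not tested changes.

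Organoid replicate 1 stood apart. Across 7141 genes whose mean over the 3 libraries was 5 RPKM or more, the titled 48h library and organoid replicate 2 were at least 2-fold apart for 13.8%. The 2 organoid libraries were that far apart for 35% of these genes, and the titled 48h library and organoid replicate 1 for 39.3%. Without organoid replicate 1, 1013 genes (7.85%) were higher and 1224 (9.49%) lower. Without organoid replicate 2, 3245 (25.2%) were higher and 1413 (11%) lower. These shares are the background for the list counts given without that library. Leaving out a library can only keep or add genes past the margin, so a count that holds or grows is no check. Effective depth was 21894461 reads in the titled 48h library and 13833143 and 20218320 in the organoids. Organoid replicate 1 was the shallowest library of the series, whose depths reached 28468920. Its summed RPKM was 446034, against 368287 in the titled 48h library and 359128 in organoid replicate 2. The median difference of organoid replicate 1 minus 2 was -0.38 on the log2 scale. A single read in a gene of 2 kb is worth 0.0228, 0.0361 and 0.0247 RPKM in the titled 48h library and organoid replicates 1 and 2. In the same order, a value of 0 allows up to 0.0685, 0.108 and 0.0742 RPKM (3 reads). Defining duct genes were present in all 3: Epcam, Krt19, Krt7, Sox9 and Spp1 were each above 100 RPKM in every library.

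**Figure D1:**
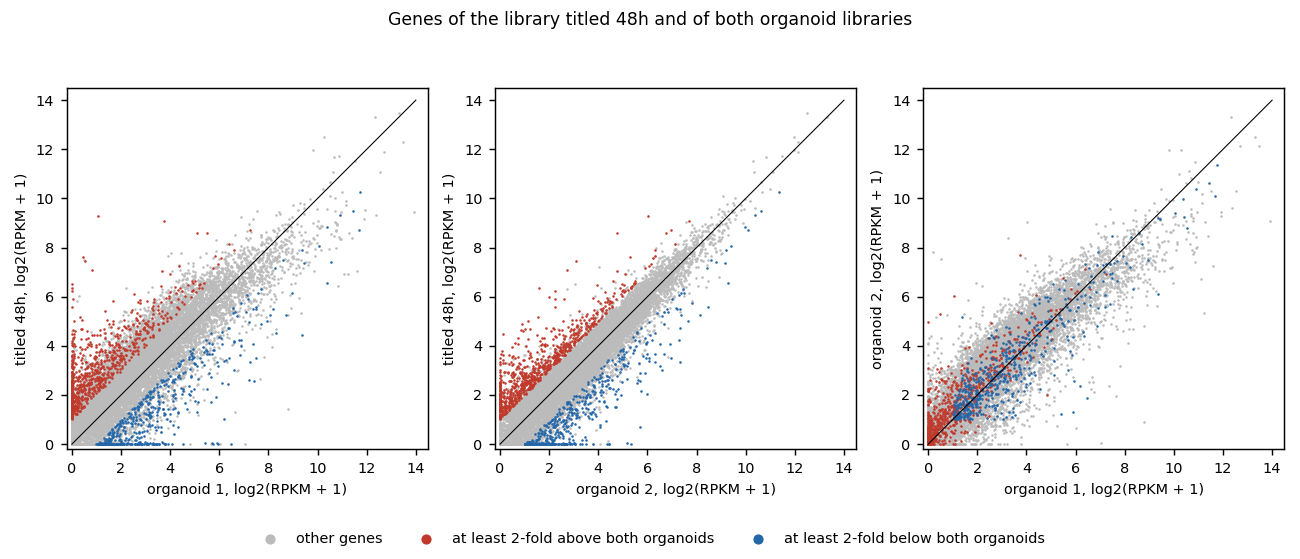
Each point is 1 of 12900 genes, with log2(RPKM + 1) of the named libraries on the axes and the line of equal levels; red and blue points are the 751 and 530 genes at least 2-fold above or below both organoid libraries. The cloud is narrower for organoid replicate 2 against the titled 48h library (13.8% of well expressed genes 2-fold apart) than between the 2 organoid libraries (35%).

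The early culture carried more transcripts of the replication machinery than the organoids did. Of 41 S phase genes, 37 lay above the organoid range and 1 below; 10 were at least 2-fold above and 0 below (background 5.82% and 4.11%). The median difference from the organoid mean was 1.13 on the log2 scale, against 0.15 for all genes tested. It was 0.72 without organoid replicate 1 and 1.65 without replicate 2. After centring on library medians it was 0.89, and 8 genes were at least 2-fold above (background 4.18%). The count was 10 without organoid replicate 1 and 37 without organoid replicate 2 (background 7.85% and 25.2%), so it depends on which organoid library is used. By the rule it could not fall below 10 in either setting, so the unchanged 10 is no check.

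Ccne2, a cyclin that opens S phase with CDK2 (chr4:11191351-11204779, plus strand, GRCm38), had 23.7 RPKM in the titled 48h library and 3.16 and 4.68 in the organoids. It was 5.06-fold above the higher organoid library, and fresh cells and 12 h cultures held 0.45 to 0.922. By limma the difference was 2.34 (SE 0.55, adjusted p = 0.413). The 24 h library, at 8.42, was also above both organoids. Uhrf1, which directs maintenance methylation to newly made DNA (chr17:56303321-56323486), had 53.6 RPKM against 5.53 and 19.6. Mcm10, an initiation factor of the replication fork (chr2:4989714-5012791), had 11.2 against 1.17 and 3.85, with 0 at 12 h and 24 h. E2f1, the transcription factor of the G1 to S transition (chr2:154559407-154569892), had 44.9 against 8.71 and 17.2. Lig1, the ligase that joins Okazaki fragments (chr7:13277283-13311433), had 42.9 against 8.74 and 16.8. In each of these the titled 48h library was the highest of the 8.

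Replication genes also differed in the 24 h library, whose time point label is the same as that of the titled 48h library. Mcm6, a helicase subunit, had 104 RPKM in the titled 48h library and 24.4 and 64.7 in the organoids, short of the 2-fold margin, and the 24 h library held 111. Mcm5 had 76.5 against 14 and 45.9, with 59.4 at 24 h. Cdc45, which joins the helicase only when origins fire, was listed at 0 at 24 h and had 53.7 in the titled 48h library, against 9.18 and 22.4 in the organoids.

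The promoters of an S phase gene that passed the margin, Pola1, and of one that did not, Mcm6, are shown because both hold a classical E2F word, as a description of these letters only. Pola1 encodes the catalytic subunit of the polymerase that primes DNA synthesis (9.44 RPKM in the titled 48h library, 1.44 and 3.74 in the organoids). Sequences are from RefSeq (GRCm38.p6), 250 bases before the start, written 5′ to 3′ on the gene's strand. Capitals mark TTTCCCGC or TTTGGCGC on either strand. The regions are chrX:93632156-93632405 and chr1:128359706-128359955, both on the minus strand.
Pola1: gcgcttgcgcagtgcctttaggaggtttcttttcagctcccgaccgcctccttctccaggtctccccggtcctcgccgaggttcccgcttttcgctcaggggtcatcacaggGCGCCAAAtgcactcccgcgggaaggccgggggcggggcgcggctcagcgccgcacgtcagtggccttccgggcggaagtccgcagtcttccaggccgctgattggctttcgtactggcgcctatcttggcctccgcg
Mcm6: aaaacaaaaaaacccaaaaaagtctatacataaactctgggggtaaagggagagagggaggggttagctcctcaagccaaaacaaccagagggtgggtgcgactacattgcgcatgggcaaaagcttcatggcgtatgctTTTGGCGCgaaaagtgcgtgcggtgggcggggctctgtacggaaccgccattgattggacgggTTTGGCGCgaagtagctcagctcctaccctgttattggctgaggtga
In Pola1 the match begins at base -138 and lies on the opposite strand; in Mcm6 there are 2 matches, from -110 and -47. Of 34 S phase genes found in the RefSeq table, 6 (17.6%) held such a word, against 1.51% of 27025 genes.

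Most mitotic genes were above the organoids too, by less. Of 40 G2 and M phase genes, 32 lay above the organoid range and 1 below (background 40.5% and 25.5%). Only 3 reached the 2-fold margin above, a share near the background of 5.82%, and 0 reached the margin below (background 4.11%). Mki67, a coat protein of mitotic chromosomes and the usual mark of dividing cells (chr7:135689784-135716361, minus strand), had 23.1 RPKM against 5.76 and 6.26, and at most 0.321 in fresh, 12 h and 24 h cells. Bub1, a kinase of the spindle checkpoint, had 33.8 against 5.08 and 12.8. Cenpe, the kinetochore motor, had 14.6 against 2.91 and 5.22. These 3 were near or at 0 in all earlier libraries. Cdk1, the kinase that drives mitosis, had 131 against 48.2 and 73.1, a gap of 0.83, under the margin. Plk1 had 73.6 against 15.4 and 59, and Ccnb2, the mitotic cyclin B2, had 144 against 109 and 137. Division genes were thus present in all 3 libraries, and the distance of the titled 48h library from organoid replicate 2 ran from slight for Ccnb2 to 3.69-fold for Mki67.

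The G1 regulators did not share this direction. Of 16 tested, 1 was higher and 3 were lower (background 5.82% and 4.11%). Ccnd1, the D cyclin of mitogen-stimulated cells, lay inside the organoid range at 163 RPKM against 76.9 and 200. Ccnd2 was lower, at 11 against 28.4 and 55.8. The inhibitor p15, encoded by Cdkn2b (chr4:89306299-89311039), was lower at 45.6 against 93.2 and 141. The related inhibitor p18, encoded by Cdkn2c, was higher at 17 against 4.39 and 7.31, and it is known as an E2F target.

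Cdkn1a, which encodes p21, the kinase inhibitor through which p53 halts the cycle (chr17:29090976-29100727, plus strand), stood lowest of the 8 libraries at 44.3 RPKM in the titled 48h library. The organoids held 166 and 161, which agree closely, and lay 3.64-fold or more above it. By limma the difference was -1.86 (SE 0.46, adjusted p = 0.454). Fresh cells had 423 and 648, and the 12 h and 24 h cultures 117 to 172. The list of p53 targets, which includes Cdkn1a, leaned the same way. Of 27 tested, 9 were lower and 0 higher (background 4.11% and 5.82%). By any margin 15 lay below the organoid range and 1 above (background 25.5% and 40.5%). The list median was nearer to 0, at -0.32. Without organoid replicate 1, 10 were lower with a median of -0.65, and without organoid replicate 2, 9 with a median of -0.15.

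The p53 targets below the range include death receptors. Fas, the death receptor of the extrinsic pathway (chr19:34290666-34327772), was listed at 0 in the titled 48h library and at 3.17 and 5.05 in the organoids. Eda2r, another receptor of the TNF family (chrX:97333840-97377216), had 1.36 against 7.91 and 13.5, while 1 of the 12 h libraries held 10.4 and the other 0. Pmaip1, which encodes the BH3-only protein Noxa, had 15.7 against 50.5 and 60.8. Zmat3, an RNA-binding p53 target (chr3:32334792-32366014), had 1.37 against 6.98 and 11.9. Other classical targets missed the margin. Mdm2, the ubiquitin ligase that limits p53, had 16.4 against 18.6 and 29.1. Bax, the pore-forming effector of apoptosis, had 286 against 314 and 370.

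The list of FoxO targets and growth restraint genes was written after values had been seen, so its count describes and supports nothing. Of 27 tested, 15 were lower and 0 higher (background 4.11% and 5.82%), with a median of -1.19. Ypel5, a subunit of the CTLH ubiquitin ligase (chr17:72836453-72851195), had 2.26 RPKM against 50 and 17.9, below every other library. Txnip, an arrestin that limits glucose uptake (chr3:96557957-96561883), had 17.5 against 95.2 and 49.6. Btg2, an antiproliferative factor that is also a p53 target (chr1:134075170-134079120), had 9.26 against 38.6 and 77.6. Depp1, a FoxO target, was listed at 0.0336 (1 read) against 51.4 and 7.14. Foxo1 and Foxo3 themselves were lower, at 2.62 against 6.53 and 6.88 and at 1.45 against 4.99 and 4.24. Cdkn1b, the inhibitor p27, had 2.8 against 3.3 and 4.75 and missed the margin.

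**Figure D2:**
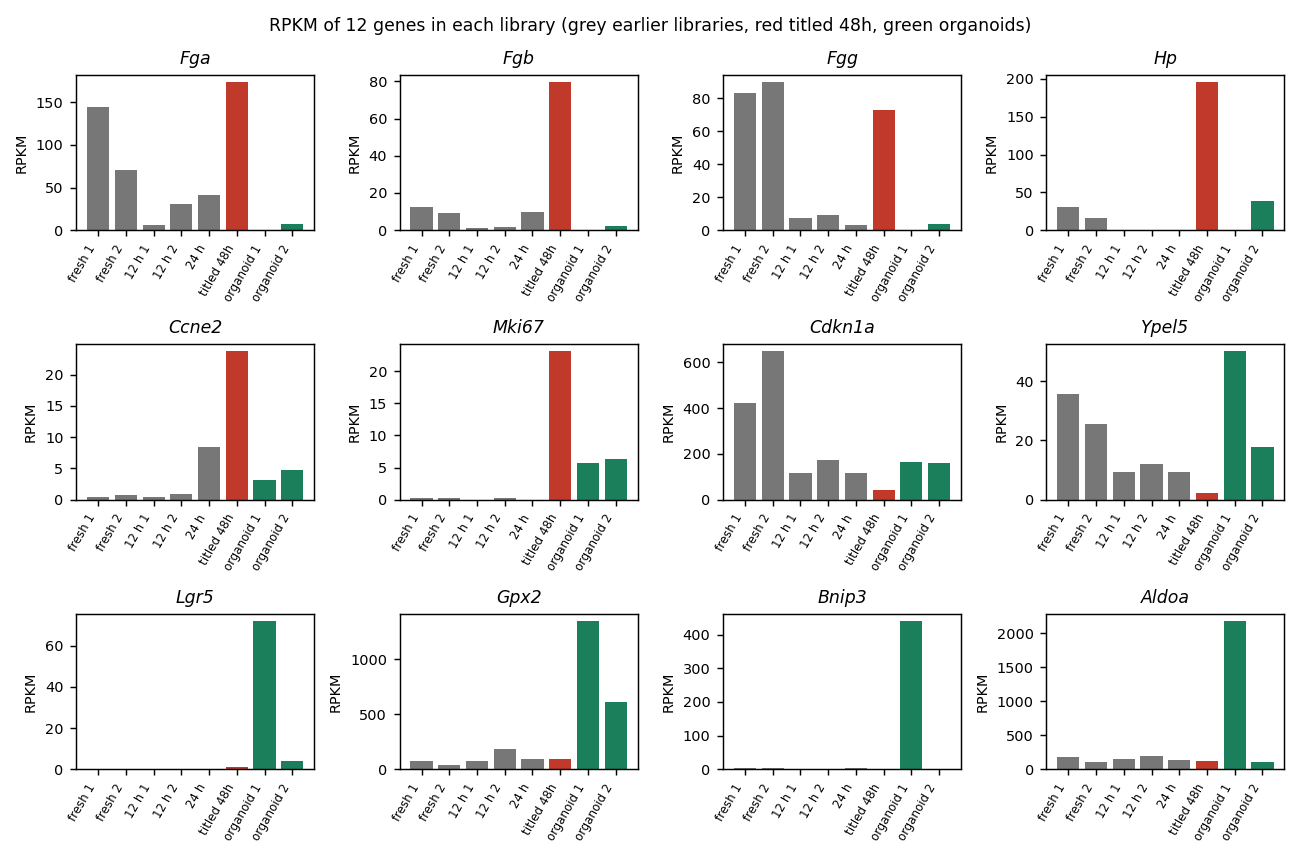
Bars give RPKM, from 0, of 12 genes in each library; grey bars are fresh, 12 h and 24 h cells, red is the titled 48h library and green the organoids, with no error bars because each bar is 1 library. Fga, Fgb, Fgg, Hp, Ccne2 and Mki67 stand above both organoids in the titled 48h library and Cdkn1a, Ypel5 and Gpx2 below, while Bnip3 and Aldoa are high in organoid replicate 1 alone.

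Fgb, a fibrinogen gene, had the widest gap above the organoids on the log2(RPKM + 1) scale among genes with a mean of 5 RPKM or more, ahead of Apoe and Vsig2. The 3 chains of fibrinogen, the clotting protein that hepatocytes secrete, are encoded side by side on chromosome 3, and all 3 stood among the 12 largest gaps. Fgb, the beta chain (chr3:83040141-83049863, minus strand), had 79.7 RPKM in the titled 48h library, and 0 and 2.03 in the organoids. It lay 39.3-fold above the higher organoid library. By limma the difference was 5.54 (SE 0.75, adjusted p = 0.232). Fga, the alpha chain (chr3:83026076-83033627, plus strand), had 174 against 0.456 and 7.59. Fgg, the gamma chain (chr3:83007724-83015049, plus strand), had 73.2 against 0 and 3.69. The earlier libraries place these levels. Fresh cells held Fgb at 12.2 and 9.15, the 12 h cultures at 1.01 and 1.56, and the 24 h library at 9.83. Fgg was at 83.4 and 90 in fresh cells, at 7.55 and 9.19 at 12 h and at 3.11 at 24 h. Both genes were lower in the 12 h cultures than in fresh cells and in the titled 48h library.

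The sequences before the 3 fibrinogen starts are shown because these neighbouring genes all lay above the organoids. Capitals mark CTGGGA, the core word of the interleukin-6 response elements known in acute phase genes, searched on both strands. They come from RefSeq (GRCm38.p6) and end before the annotated gene: Fga chr3:83025903-83026075 on the plus strand, Fgb chr3:83049864-83050113 on the minus strand and Fgg chr3:83007474-83007723 on the plus strand.
Fga: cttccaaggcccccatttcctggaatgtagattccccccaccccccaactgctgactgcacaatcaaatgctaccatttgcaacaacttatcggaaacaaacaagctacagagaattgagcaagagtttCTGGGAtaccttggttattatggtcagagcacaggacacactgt
Fgb: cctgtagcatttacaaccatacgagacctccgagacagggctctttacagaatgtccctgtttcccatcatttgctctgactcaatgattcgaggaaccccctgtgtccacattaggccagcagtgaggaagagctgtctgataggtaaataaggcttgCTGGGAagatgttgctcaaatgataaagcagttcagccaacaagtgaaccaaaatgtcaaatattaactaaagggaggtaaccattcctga
Fgg: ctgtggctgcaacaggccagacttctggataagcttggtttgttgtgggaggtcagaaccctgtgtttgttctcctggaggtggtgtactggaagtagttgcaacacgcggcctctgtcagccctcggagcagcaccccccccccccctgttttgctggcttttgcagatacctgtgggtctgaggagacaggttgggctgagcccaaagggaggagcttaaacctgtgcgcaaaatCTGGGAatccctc
The word begins at -121 in Fga, -91 in Fgb and -13 in Fgg, counted from the RefSeq start. The 77 bases of Fga nearest that start lie inside the GENCODE gene and were searched but are not printed, so its printed stretch ends 77 bases short of it. The word is common, being found within 250 bases of the start in 29.8% of 27025 genes, and in 8 of 24 hepatocyte list genes. GTTAAT, a short form of the HNF1 word, was in 11 of these 24 (45.8%), Fga and Fgb among them, against 7.49% of all genes. The match in Fga lies in the stretch not printed.

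Other plasma protein genes were above the organoids, and others were not there at all. Of 26 hepatocyte markers tested, 9 were higher and 0 lower (background 5.82% and 4.11%), with a median of 0.81, or 0.41 without organoid replicate 1 and 1.2 with a pseudocount of 0.1. The count was 11 without organoid replicate 1 and 12 without organoid replicate 2. Apoe, the lipoprotein ligand of the LDL receptor (chr7:19696109-19699188), had 136 RPKM against 0.744 and 5.53. It stood at 1960 and 2515 in fresh cells and at 179 at 24 h, so here the titled 48h library was lower than every earlier one. Alb, albumin (chr5:90460897-90476602), had 58.9 against 0.0309 and 3.72, and 488 and 660 in fresh cells. Ambp, the precursor of alpha-1-microglobulin, had 630 against 1.08 and 64.1. Hp, haptoglobin (chr8:109575128-109579172), had 196 against 0.377 and 38.2, with 30.6 and 16.4 in fresh cells and at most 0.349 at 12 h and 24 h. Hnf4a, the hepatic nuclear receptor, lay inside the organoid range at 16.7 against 9.24 and 39.8.

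Defining genes of mature hepatocytes were at or near 0 in the titled 48h library. Apoc3, Cyp3a11, Fabp1, Serpina1a, Cps1, Pck1 and G6pc were listed at 0, Apoa1 at 0.037 and Cyp2e1 at 0.025. The summed level of the 30 hepatocyte markers was 1640.9 RPKM in the titled 48h library, 367.4 and 238.8 in the organoids, and 4489.0 and 4797.5 in fresh cells, with 8, 14, 11, 0 and 0 members at 0. In bulk RNA, fewer cells of a type and less RNA per cell cannot be told apart.

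The acute phase and complement list was also written after values had been seen, so its count describes only, and it holds the fibrinogen genes. Of 27 tested, 11 were higher and 0 lower (background 5.82% and 4.11%), with a median of 1.06. Without organoid replicate 2, 18 were higher and the median was 2.1, and with a pseudocount of 0.1 the median was 2.41. Lrg1, a leucine-rich glycoprotein induced in inflammation (chr17:56119678-56122001), had 385 RPKM against 33.3 and 25.8, the highest of the 8 libraries, where fresh cells had 130 and 76. Its 2 organoid values are close together. By limma its difference was 3.67 (SE 0.47, adjusted p = 0.232). C3, the central complement component (chr17:57203970-57228136), had 387 against 44.3 and 106. Serping1, the inhibitor of C1 (chr2:84765387-84775444), had 31.7 against 0.0622 and 1.21. Lcn2, an iron-trapping acute phase protein, was abundant throughout at 3308 against 1648 and 1816, a gap of 0.87. Saa1, Itih3, Itih4, Orm1 and Serpina3n were listed at 0 in the titled 48h library, so the acute phase genes did not stand together as a whole. Of 26 NF-kB and inflammatory genes, 2 were higher and 0 lower (background 5.82% and 4.11%). The 2 were C3 and the chemokine Ccl20 (153 against 19.8 and 66.3). In organoid replicate 1, 0 of the 26 were higher than in replicate 2. In the titled 48h library 8 of the 26 lay above both (background 40.5%). Their median was -0.07 without organoid replicate 1 and 1.42 without replicate 2.

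Of 27 interferon-response and antigen presentation genes tested, 6 were higher and 0 lower (background 5.82% and 4.11%). By any margin 19 lay above the range (background 40.5%). The count was 9 without organoid replicate 1 and 11 without organoid replicate 2, and 3 after centring on library medians. Psmb8, a subunit of the immunoproteasome (chr17:34197721-34201454), had 23.5 RPKM against 0.528 and 3.25, near the 18.3 to 45.9 of all earlier libraries. Irf7, the interferon regulatory factor, had 8.12 against 2.06 and 2.05. Oas1a, an antiviral synthetase, had 6.64 against 1.8 and 0.446. The organoids were the lowest libraries for Psmb8 and Oas1a.

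Some stem cell and Wnt genes lay below the organoids. Of 19 Wnt receptors, targets and organoid stem markers, 4 were lower and 0 higher (background 4.11% and 5.82%). By any margin 10 lay below the range and 4 above (background 25.5% and 40.5%). The median was -0.48, -0.81 without organoid replicate 1 and -0.05 without replicate 2. Lgr5 (chr10:115450311-115587780, minus strand) had 1.05 RPKM in the titled 48h library and 72 and 4.21 in the organoids. The organoid values differ more from each other than the lower one does from the titled 48h library. By limma the difference was -3.25 (SE 1.36, adjusted p = 0.67). Earlier libraries held at most 0.224, so the titled 48h library had the highest Lgr5 value outside the organoids. Ascl2, a Wnt-driven stem cell factor, was listed at 0 against 5.34 and 1.04, and the 24 h library held 2.09. Ephb3, a receptor under Wnt control in the gut, had 0.842 against 3.12 and 5.39, though fresh cells held 5.9 and 4.89. Prom1, the membrane protein CD133 (chr5:43993620-44102032), had 44.5 against 180 and 109, at the 31 to 58.9 of all earlier libraries. Axin2, the feedback target of Wnt signalling, had 1.23 against 1.3 and 8.88, close to the first organoid library, while the 24 h library held 15.4. Without organoid replicate 1 the number lower was 8, and without replicate 2 it was 5.

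A Wnt ligand and an activin antagonist stood among the 12 largest gaps below. Wnt10a (chr1:74791516-74804179, plus strand) was listed at 0 in the titled 48h library and at 12.9 and 39.3 in the organoids. By limma its difference was -4.56 (SE 0.75, adjusted p = 0.234). The 24 h library held 10.3. Fst, follistatin, which binds activins (chr13:114452290-114458951), had 0.606 against 19 and 51.3, and at most 3.47 in any earlier library. Tgfb3, a TGF-beta ligand, was lower at 6.45 against 21.9 and 59.1. Bmp7, a BMP ligand, was higher at 4.23 against 0.252 and 0.591. The other 21 of 24 TGF-beta and BMP genes tested were within the margin.

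Notch genes were few. Of 11 tested, 2 were lower and 0 higher (background 4.11% and 5.82%). Jag2, a Notch ligand (chr12:112907819-112929776), had 0.439 RPKM against 3.53 and 3. Lfng, the glycosyltransferase that tunes Notch receptors (chr5:140607320-140615545), had 0.109 (6 reads) against 1.99 and 6.91. Both were at 0 in the 12 h and 24 h libraries. Hes1, the main Notch target, had 82.8 against 138 and 109, a gap of -0.39.

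Of 21 genes of regenerating and fetal-like epithelium tested, 4 were lower and 1 higher (background 4.11% and 5.82%). By any margin 13 lay below the range (background 25.5%). The number lower was 5 without organoid replicate 1 and 7 without replicate 2, and the median went from -0.55 to -0.28 and -0.59. Ly6a, the surface protein Sca-1 (chr15:74994877-74998031), had 423 RPKM against 3259 and 1106, and 49.6 to 101 in the earlier libraries. The titled 48h library thus lay between the earlier libraries and the organoids. Anxa1, an annexin of wound repair (chr19:20373428-20390944), had 46.3 against 177 and 351. S100a6, a calcium-binding protein, had 719 against 2747 and 1581. Ly6d was the exception, at 238 against 94.9 and 78.3, but its 2 fresh libraries were at 1683 and 24.7. Spp1, osteopontin, and Clu, clusterin, which are both abundant in duct cells, were near or inside the range, Spp1 at 11527 against 10088 and 5841 and Clu at 10120 against 5191 and 10285.

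Duct identity genes showed levels below the organoids only for some members. Of 25 tested, 2 were lower and 0 higher (background 4.11% and 5.82%), and 11 lay below by any margin (background 25.5%). The median was -0.23, or -0.45 without organoid replicate 1 and 0.16 without replicate 2. Krt19, the duct keratin (chr11:100140810-100148665, minus strand), had 634 RPKM against 1920 and 1326. The earlier libraries ran from 162 at 24 h to 1650 in fresh cells. Krt7 had 285 against 810 and 409, and Epcam (chr17:87635979-87651129) had 513 against 900 and 954, both short of the margin. Epcam was lowest of the 8 libraries there, by limma -0.85 (SE 0.45, adjusted p = 0.732). Sox9, the duct transcription factor, had 107 against 120 and 140. Among 27 transport and cilium genes, 3 were higher and 0 lower (background 5.82% and 4.11%). Slc5a1, the sodium-glucose cotransporter (chr5:33104219-33162870), had 7.21 against 0.0352 and 0.554, and 27.5 and 38.2 in fresh cells. Slc10a2, the bile acid importer of the duct's apical face, had 8.28 against 0.731 and 2.89. Abcb1a, a drug efflux pump, had 2.38 against 0.0264 and 0.144.

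**Figure D3:**
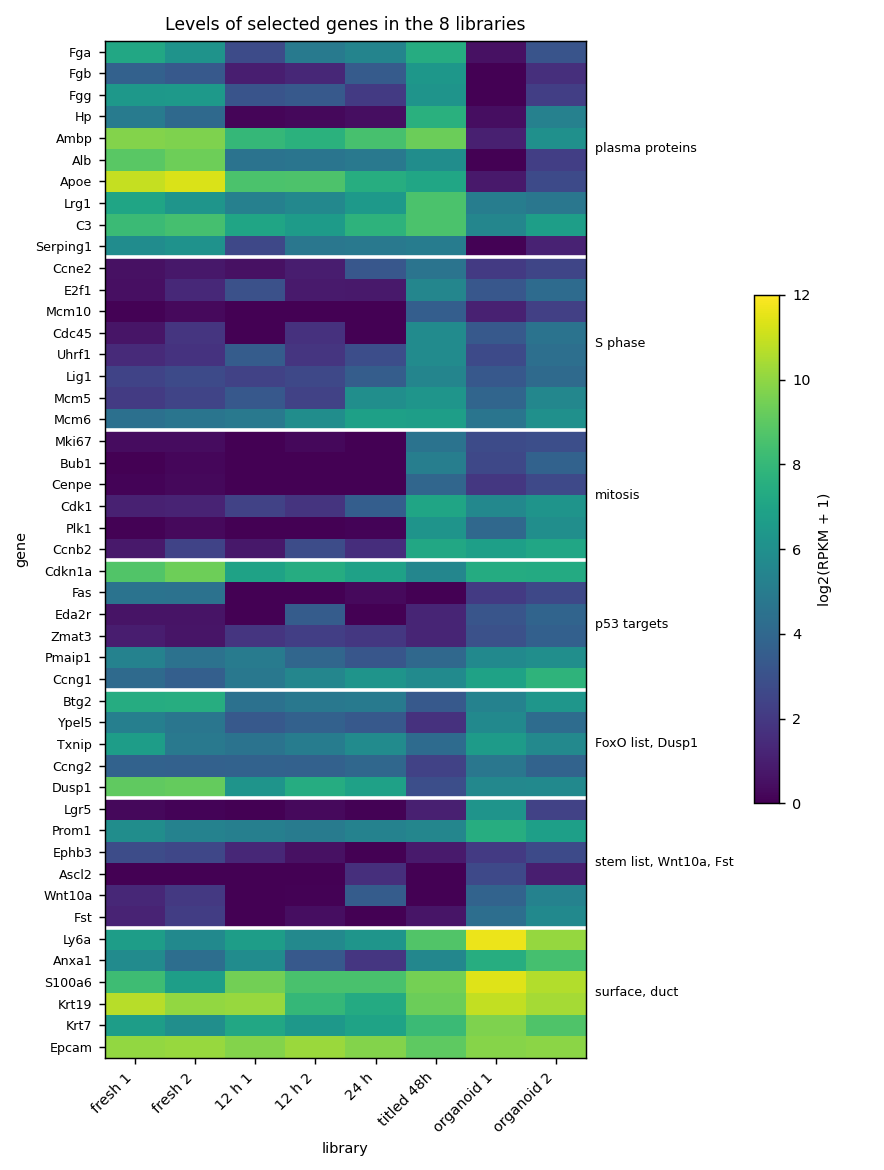
Colours give log2(RPKM + 1) of selected genes, in rows grouped by role, in each of the 8 libraries, in columns. The rows were chosen with values known. Those from the stem list are its 4 members past the margin, and Mdm2 and Bax, which missed it, are not shown. Among the rows shown, plasma protein and replication genes are brighter in the titled 48h column than in the organoid columns. The p53, FoxO and stem cell genes shown are darker.

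Gut-like genes split. Of 21 gastrointestinal genes, 3 were higher and 3 lower (background 5.82% and 4.11%). Cdx2, the intestinal master regulator (chr5:147300805-147307270), was listed at 0 in the titled 48h library and all 5 earlier ones, and at 3.26 and 2.23 in the organoids. Tff2, a trefoil peptide, had 0.704 RPKM against 8.54 and 3.64, though fresh cells had 96.6 and 264. Cdh17, an intestinal cadherin (chr4:11758147-11817895), had 60.3 against 29.7 and 129 and so lay inside the range, with at most 3.63 in fresh and 12 h cells. Reg3g, an antibacterial lectin, was higher at 32.6 against 0.342 and 6.64. Pigr, which carries antibodies across epithelium, was higher at 9.2 against 0.485 and 1.67. Gpx2, the epithelial glutathione peroxidase, was lower at 93.7 against 1349 and 613, near the 40.1 to 186 of all earlier libraries.

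Immediate early genes, which answer stimuli and cell handling within minutes, did not share 1 direction. Of 26 tested, 7 were lower and 1 higher (background 4.11% and 5.82%). By any margin 15 lay below the range and 7 above (background 25.5% and 40.5%), with a median of -0.43, or -0.2 without organoid replicate 2. Dusp1, a phosphatase that ends MAP kinase signals (chr17:26505590-26562128), had 6.44 RPKM against 47.4 and 50.6. By limma the difference was -2.75 (SE 0.55, adjusted p = 0.314). Fresh cells held 539 and 578, and 12 h and 24 h cells 72.6 to 172. Gadd45a, a stress sensor (chr6:67035096-67037457), had 5.67 against 27.6 and 16.4. Egr1, a transcription factor of growth factor signals, went the other way, at 58 against 5.85 and 20.3. Fos was above both organoids within the margin, at 43.4 against 20.6 and 29.8. Among 23 ERK targets and ErbB ligands, 1 was higher and 2 were lower (background 5.82% and 4.11%). The higher one was the AP-1 subunit Fosl1 (55.8 against 2.16 and 14.7). Ereg, the EGF family ligand epiregulin, was listed at 0 against 2.08 and 2.9, and Erbb3, an ErbB receptor, had 5.13 against 12.2 and 12.3. Of 27 YAP and TEAD targets 2 were higher and 2 lower (background 5.82% and 4.11%). Axl, a receptor tyrosine kinase (chr7:25757273-25788705), had 60.3 against 13.4 and 19.3, the highest of the 8. Myc lay inside the organoid range, at 46.6 against 18.2 and 68.3.

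Genes of ribosome assembly, translation and lipid synthesis lay mostly above the range, but few passed the margin. Of 30 MYC and ribosome biogenesis genes 21 lay above and 2 below (background 40.5% and 25.5%). Past the margin 1 was higher (background 5.82%), Wdr12, a factor of large subunit assembly (10.3 RPKM against 2.37 and 3.41). Of 23 translation initiation and tRNA ligase genes 18 lay above and 2 below. Past the margin 0 of these were higher and 1 was lower, Eef1a1, at 168 against 1475 and 448. Of 28 cholesterol and fatty acid synthesis genes 20 lay above and 1 below by any margin, with 1 at least 2-fold higher and 0 lower. Sqle, the squalene epoxidase, had 67.2 RPKM against 34.1 and 56.9, a gap of 0.24. Of 25 unfolded protein and integrated stress response genes 3 were higher and 0 lower (background 5.82% and 4.11%). Mthfd2, of mitochondrial folate metabolism (chr6:83305691-83325908), had 52.5 against 5.8 and 15.6. Psat1, of serine synthesis, had 91.9 against 29.8 and 42.4, and Creld2, a protein of the endoplasmic reticulum, had 190 against 65.7 and 74. Of 28 Polycomb and chromatin regulators 3 were higher and 0 lower (background 5.82% and 4.11%). Among the higher ones was Hells, a helicase needed for DNA methylation, at 15.3 against 1.9 and 5.79.

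The list of lysosomal and autophagy genes was also written after values had been seen, so its count describes only. Of 35 tested, 6 were lower and 0 higher (background 4.11% and 5.82%), with 19 below by any margin (background 25.5%). Without organoid replicate 2, 10 were lower. Ctsh, a cysteine protease of the lysosome (chr9:90054152-90076089), had 28.5 RPKM against 205 and 100. Ctsd, the aspartic protease (chr7:142375911-142388038), had 455 against 1336 and 994. Dram1, a p53 target that promotes autophagy, had 3.13 against 21.4 and 24.8. Ephx1, the microsomal epoxide hydrolase (chr1:180976210-181020904), is no lysosomal gene but had one of the widest gaps below, at 10.3 against 178 and 125. Its limma difference was -3.74 (SE 0.41, adjusted p = 0.232). Ltf, lactoferrin (chr9:111019271-111042767), had 9 against 152 and 160.

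For glycolysis and hypoxia genes the direction rested on organoid replicate 1. Of 19 glycolysis genes, 1 was lower and 0 were higher (background 4.11% and 5.82%), and the median was -1.05. Without organoid replicate 1 the median was 0.03. Aldoa, the aldolase of glycolysis, had 120 RPKM against 2182 and 104. Ldha, lactate dehydrogenase, had 329 against 1992 and 256. Pfkm, the muscle-type phosphofructokinase, was the 1 gene at least 2-fold below both, at 1.62 against 10.4 and 7.58. Of 19 hypoxia genes 4 were lower and 0 higher (background 4.11% and 5.82%). The median was -1.51, and without organoid replicate 1 it was 0.22. Bnip3, a mitophagy receptor induced by low oxygen, had 1.73 against 441 and 0.852. Ddit4, an mTOR inhibitor (chr10:59949669-59951834), was below both at 15.1 against 118 and 45.5. In each list, 18 of 19 genes were higher in organoid replicate 1 than in replicate 2. Among 37 cytosolic ribosomal protein genes, 34 were higher in organoid replicate 1, 1 was lower in the titled 48h library and the median was -0.65. That median was 0.02 without organoid replicate 1 and -1.38 without replicate 2. Oxidative phosphorylation genes, 28 in all, had a median of -0.06 with 0 higher and 0 lower.

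**Figure D4:**
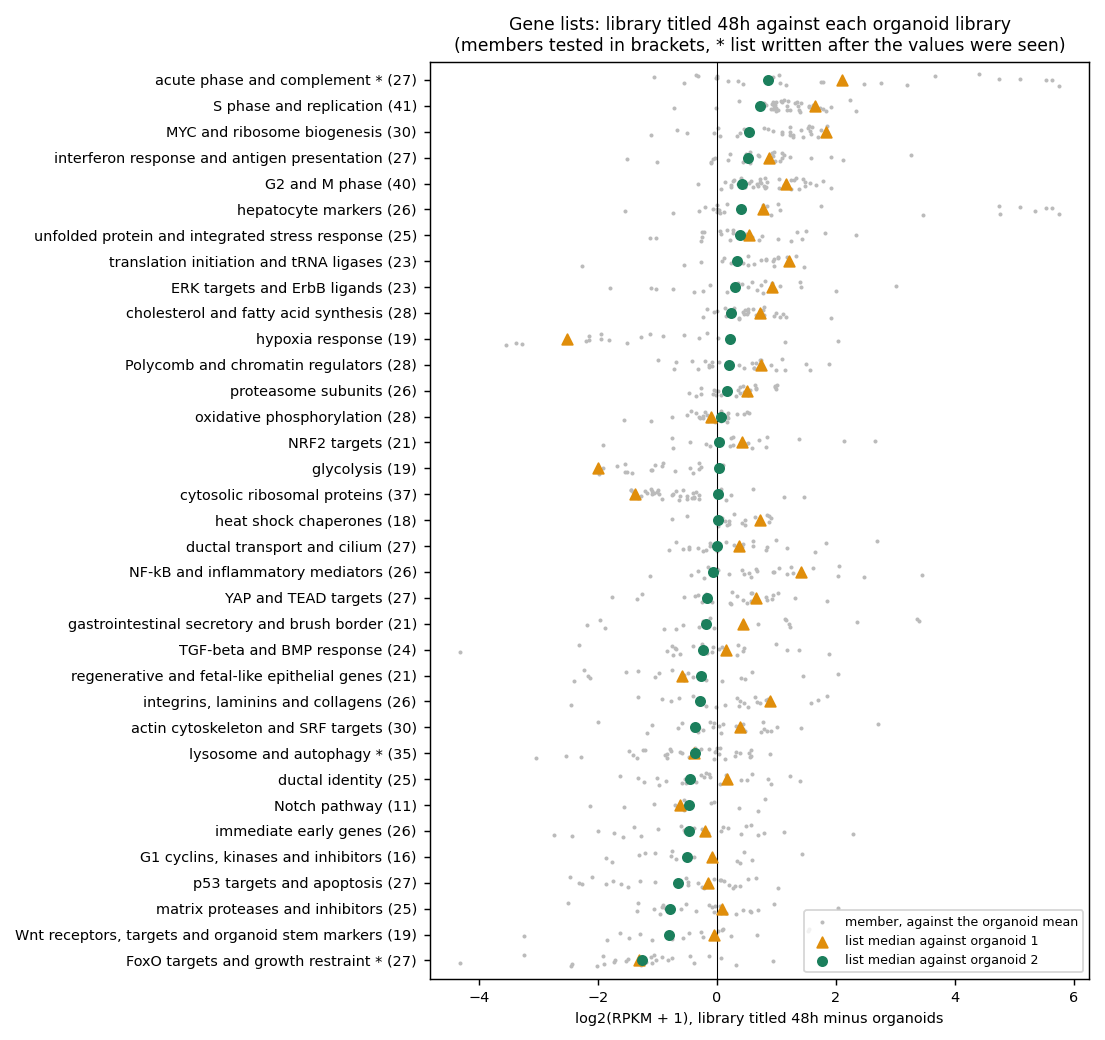
Each row is a gene list with at least 5 genes tested; grey points are members against the organoid mean, and the triangle and circle are the list medians against organoid replicate 1 and 2, in log2(RPKM + 1). The 2 medians stand on opposite sides of 0 or far apart for glycolysis, hypoxia and ribosomal protein genes. They also change side for ductal identity, gastrointestinal, NF-kB, YAP, actin, integrin, matrix protease, TGF-beta and oxidative phosphorylation genes. For S phase, acute phase and FoxO genes they are on the same side.

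Markers of other cell types were sparse. Of 14 mesenchymal and stellate markers, 3 passed the expression filter and 1 was higher, Rgs5, a regulator of G protein signalling found in pericytes (chr1:169655501-169695813), at 34.9 RPKM against 0.254 and 1.88. Rgs5 was higher still in the 12 h and 24 h cultures, at 179 to 438, and Col1a1, the defining collagen, was at 1.01 against 0 and 0.188. The summed mesenchymal level was 38.0 against 0.5 and 2.2, with 6, 9 and 9 of 14 members at 0. Sparc, a matrix glycoprotein, was also higher, at 23.2 against 0.0859 and 0.911. The part of other cells in these 2 genes was not tested. The 17 immune markers summed to 27.3, 27.7 and 14.9 and the 14 endothelial markers to 8.8, 12.9 and 5.0. Of 2 endothelial markers tested, 1 was higher, Eng, at 2.08 against 0.286 and 0.501. Of 4 immune markers tested 2 were lower, Cd74 at 0.13 against 1.9 and 3.44 and Csf1r at 0.122 against 1.92 and 1.79. Of 4 mesothelial markers tested, 1 was higher, Gpm6a, at 5.78 against 0 and 0.0148, and 1 was lower, Krt19, which duct cells share. The 8 mesothelial markers, Krt19 included, summed to 1052.7, 2408.4 and 1800.9, with 5, 5 and 4 at 0. Among the defining markers examined, the immune Ptprc, Cd3e, Cd79a and Adgre1, the endothelial Pecam1 and Kdr and the mesothelial Wt1 and Upk3b were listed at 0 in all 3 libraries. The mesenchymal ones were not. Besides Col1a1, the titled 48h library held Col3a1 at 0.763, Dcn at 0.526 and Col1a2 at 0.195, against at most 0.0101 in the organoids. The mesenchymal Des and the endothelial Cdh5 had 0.0122 and 0.0115 there and 0 in both organoids. The source of these low levels was not tested.

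Set against all 8 libraries, the higher and lower genes were of several kinds. Of the 751 higher genes, 337 had their highest level of the series in the titled 48h library, as Lrg1, Hp, E2f1 and Mki67 did. In 136 both fresh libraries stood above it, as for Apoe and Alb. Of the 530 lower genes, 225 were higher in both organoid libraries than in any other library, as Fst, Ly6a and Cdx2 were. In 126 the titled 48h library was the lowest of the 8, as for Cdkn1a and Dusp1, and 130 were listed at 0 in it.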

How the data were processed

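RNA from EpCAM-sorted liver duct cells was amplified by Smart-seq2 and tagmented with Nextera XT, per the labels' protocols. The authors deposited 1 table of RPKM for 47729 genes in 8 libraries. Per the submitters' processing notes, GRCm38 and edgeR were used; the aligner, counter, annotation, filters and strand setting were not given in the sources used here, so overlapping genes may share reads. Symbols came from GENCODE M21 on GRCm38, which named 47310 identifiers.

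Members, lists and rules were chosen with earlier results of these data known. No scaling was added between libraries. A gene was tested if it reached 1 RPKM in 2 or more of the 8 libraries, on log2(RPKM + 1) with a pseudocount of 1. The main rule is the 2-fold gap to the nearer organoid library. limma 3.58.1 (R 4.3.3; 5 groups, eBayes with trend, two-sided, Benjamini-Hochberg) had 3 residual degrees of freedom and 3.65 prior ones. Depth was recovered from the step that 1 read makes in small values, 91% to 93.2% of which came out whole within 0.05 reads, and limits drawn from it cover counting error only, because the reads carry no molecular identifiers that would separate PCR copies.

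The named genes are the 12 largest gaps above and the 12 below at a mean of at least 5 RPKM, without predicted, ribosomal protein, small RNA, pseudogene or mitochondrial genes; up to 5 members per list past the margin; and 15 genes whatever their result. Other genes named, such as Hp, Ambp, Mcm5, Mcm6, Cdc45, Pola1, Gpx2, Sqle, Bnip3, Aldoa, Clu, Mdm2 and Foxo1, were chosen after their values were seen. The 36 lists of 911 entries came from textbook knowledge, and 3 further lists were written after values were seen. A few list members are not reported here by name but stay in the counts. Tested on simulated data (10 simulations, 12900 genes, 200 of them changed), limma recovered 0.2%, 1%, 43.8% and 72% of changes of 1, 2, 4 and 6 on the log2 scale, and the range rule 34.4%, 86.2%, 99.6% and 99.8%, while it picked 7.64% of unchanged genes. Alternatives changed the pseudocount, filter, scaling, margin and libraries. Python 3.11.15, numpy 2.4.6, pandas 2.3.3 and matplotlib 3.10.9 were used.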

Additional observations from a re-analysis of the deposited data

How the results depend on the processing

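No paired analysis was possible because the titled 48h library carries no replicate number, so the groups share fewer than 2 numbers. The genes higher and lower than the organoids, 751 and 530, became 1187 and 1062 with a pseudocount of 0.1, 291 and 245 among genes with a mean of 5 RPKM or more, 125 and 79 with a 4-fold margin, and 1678 and 1042 against the organoid mean. Of all genes outside the margin, 58.6% were higher, against 42.2% after centring on library medians (539 higher and 739 lower) and 45.3% without organoid replicate 1. Leaving out either organoid library gave 1013 to 3245 higher and 1224 to 1413 lower genes. It gave 10 to 37 S phase, 9 to 11 interferon and 11 to 18 acute phase genes higher, and 5 to 8 Wnt, 5 to 7 regenerative, 4 to 16 hypoxia and 6 to 10 lysosomal genes lower. The interferon count was also 11 with a pseudocount of 0.1 and 3 after centring, where 9.2% and 4.18% of all genes tested were higher. The glycolysis and hypoxia medians reversed to 0.03 and 0.22 without organoid replicate 1 and were -2.01 and -2.53 without replicate 2. Smaller medians also changed sign. Without replicates 1 and 2 in turn, ductal identity gave -0.45 and 0.16, and NF-kB genes -0.07 and 1.42. YAP targets gave -0.16 and 0.66, and integrin genes -0.29 and 0.9. Ribosomal protein, actin, matrix protease, gastrointestinal, TGF-beta and oxidative phosphorylation medians did so too. The cause was not tested. With no expression filter, limma passed 325 genes above and 29 below, of which 142 are listed at 0 in all 6 replicated libraries; under every other alternative run it passed 0. Without 1 of the 6 replicated libraries its smallest adjusted p was 0.116 to 0.527. Of the gene values, 533 were within the spread and 107 moved, with no reversal among genes past the margin. Leaving out an organoid library could not reverse such a gene, nor move it beyond rounding, so those settings are no check. Nor could it lower a count of genes or list members past the margin. Genes inside the organoid range, such as Hnf4a and Myc, were not scored for reversal. They lie on different sides of the 2 organoid libraries. Low values are limited by depth: 3 reads in a 2 kb gene are 0.0685 to 0.108 RPKM.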
